A study of Anguilla anguilla with 11 samples.

Results

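The transcripts described here encode proteins that copy DNA and divide cells, measured in the European eel, in its rete mirabile. They were chosen from the descriptions and names in the deposited gene table: DNA replication licensing factors, mitotic-specific cyclins, proliferating cell nuclear antigen, DNA topoisomerase 2, mitotic checkpoint and kinetochore proteins, aurora kinase, ki67, plk1 and cdk1. The choice found 69 of 45974 predicted genes, here called transcripts, which carry 33 different names (1 has none). The descriptions with the words DNA topoisomerase 2 include the topoisomerase 2-binding proteins, the only row with the words aurora kinase is an aurora kinase a-interacting protein, and a description with cyclin-dependent kinase 1 was found in 0 rows, so that cdk1 entered by its name.

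RNA came from female eels caught in Lake Constance, 5 yellow eels, the growing stage of freshwater, and 6 silver eels, the stage that sets out on the spawning migration. Both stages had the same handling: the rete, a bundle of parallel capillaries that supplies the swimbladder, was perfused with saline until it was free of blood, and polyA-selected RNA was sequenced as 1 library per eel. The age of the eels is not given in the sources used here. By the start of their titles the libraries fall into 2 sets, of which FG1835 has 3 eels of each stage and FG1907 has 2 yellow eels and 3 silver ones, and the methods name 2 kinds of sequencing run without saying which library had which. Set, sequencing run and any difference between the eels of the sets cannot be told apart. The rete is mostly capillary wall, so its defining markers should be those of endothelium. All 7 endothelial names looked for (among them the endothelial cadherin cadh5 and the receptors tie1 and tie2) had reads in every library. So did all 7 names of smooth muscle and pericytes, 5 of fibroblasts and 7 of leukocytes, so these reads do not set endothelium apart.

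Before a cell divides it copies its DNA once. In the first phase of the cycle the ring of the subunits MCM2 to MCM7 is loaded onto replication origins, which is called licensing, and in the synthesis phase it unwinds DNA while PCNA, a ring that slides along DNA, holds the polymerases in place. At mitosis the kinase CDK1 with cyclin B drives the cell into division, topoisomerase 2-alpha untangles the copied chromosomes, and the kinetochore ties them to the spindle under the watch of the checkpoint proteins. In most adult endothelium nearly all cells rest, and RNA of these genes is then scarce. Some members have other work as well: topoisomerase 2-beta in transcription, MCM8, MCM9 and the topoisomerase 2-binding protein in DNA repair, BUB3 and ZW10 in other processes of the cell. For this reason 53 members were treated as genes of dividing cells and 16 as genes that resting cells may use too. These names of the groups are labels only. The split was made by hand, and whether resting cells of the rete use the 16 was not tested.

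Counts assigned to transcripts summed to 9360429 to 12438185 per library (median 10555968). Levels are relative expression values, the counts divided by a size factor for each library, with a mean of 50 as the limit above which a transcript counted as well expressed. They are not corrected for length, so levels are compared between eels and not between genes. Reads were found for 68 of the 69 members, and 35 were read in all 11 libraries, while a transcript named mcm3m (g40116) had 0 reads, which allows up to 3 reads or a relative expression value of up to 2.44 to 3.52, depending on the library. Only 9 members had a mean above 50, and 2 of these, pcna (g21536) and plk1 (g6602), are genes of dividing cells. A filter on low counts left 33 members for the tests, 17 of the 53 genes of dividing cells and all 16 of the others, so the tests say nothing about the remaining 36, which had 0 to 100 reads each over all libraries.

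On the first principal component of the 23981 transcripts tested the sets lay apart (46.8% of the variance), with FG1835 at -78.8 to -53.7 and FG1907 at 11.4 to 121. The silver eel library FG1907_02 stood apart on the second component (13.1%), at 127, where the others lay between -36.6 and 5.19. A check for libraries deposited more than once found 0 pairs of the same stage and set whose counts agreed within sampling noise (chi-square per degree of freedom 20.9 to 112).

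The genes of dividing cells together made up 0.00372 to 0.00861% of the counts of an eel. Their relative expression values summed to 558 ± 128 in yellow eels (mean ± SD, n = 5) and 635 ± 232 in silver eels (n = 6), and to 549.9 in silver eels without FG1907_03. The lowest sum, 404 in FG1835_05, and the highest, 1062 in FG1907_03, were both from silver eels. Within the sets the sums were 404 to 633 in FG1835 and 602 to 1062 in FG1907, which overlap. The sum of the members that resting cells use too was 1627 ± 45.3 in yellow and 1632 ± 265 in silver eels.

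**Figure D1:**
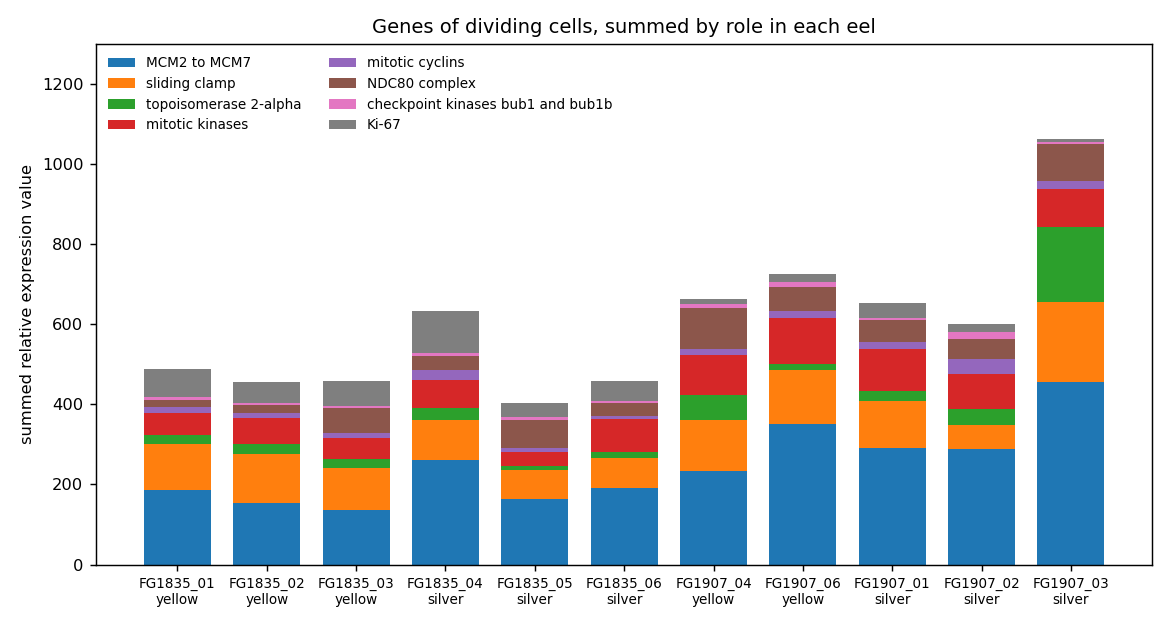
Summed relative expression values of the genes of dividing cells in each eel, stacked by role, with FG1835 on the left and FG1907 on the right (each bar is 1 eel; the axis starts at 0). FG1907_03 reaches 1062, of which MCM2 to MCM7 hold 456 and topoisomerase 2-alpha 187, while its Ki-67 share is only 7.05.

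Silver and yellow eels were compared first, with edgeR's quasi-likelihood test on all transcripts and Benjamini-Hochberg adjustment over all of them. Log2 differences are silver minus yellow, with a standard error, and 1 unit is a 2-fold difference. At an adjusted p under 0.05, 0 of the 33 members tested differed between the stages (0% of all transcripts tested). At an unadjusted p under 0.01 it was 0 members (0.413% of all), at an unadjusted p under 0.05 again 0 (2.15% of all), and the smallest p was 0.107, for mcm6 (g19872). This model leaves out the library set, so differences between the sets add to the spread between eels. With the set as a term in edgeR 0 members passed at an adjusted p under 0.05. At an unadjusted p under 0.05 it was 2 members, against 973 of all 23981 transcripts tested. On the stage alone, DESeq2 and limma called 0 members at an adjusted p under 0.05 and 0 at an unadjusted p under 0.05. DESeq2 was run on all 45974 transcripts, with 69 members, and called 25 at the adjusted and 1057 at the unadjusted threshold. Of 23981 transcripts limma called 0 and 469. In 0 members did the values of all silver eels lie on one side of those of all yellow eels (0.238% of all transcripts tested). The log2 difference was above 0 in 18 members and below 0 in 15, with a median of 0.023, against 0.0046 over all transcripts tested. A p over the threshold does not show that the stages are alike, and the standard errors of 0.18 to 1.01 leave room for differences of the size seen in single members.

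The licensing helicase comes first in the cycle. Of the 28 transcripts of MCM2 to MCM7, 8 were tested, and 20 had at most 76 reads over all libraries. The most abundant, mcm4a (g1101), had relative expression values of 13.8, 29.5 and 20 in the yellow eels of FG1835 and 47.5 and 64.9 in those of FG1907. In silver eels they were 58.0, 41.2 and 34.5 in FG1835 and 76.5, 32.3 and 119.8 in FG1907. All 3 silver eels of FG1835 thus lay above the 3 yellow eels of that set, but in FG1907 the stages overlapped. The log2 difference of mcm4a was 0.77 (standard error 0.47, unadjusted p = 0.124 and adjusted p = 1 in edgeR), with 1.05 within FG1835 and 0.43 within FG1907. With the set in the model its unadjusted p was 0.050.

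A second subunit, mcm6 (g19872), was at 4.07, 11.8 and 11.8 in the yellow eels of FG1835, at 10.2 and 38.0 in those of FG1907, at 27.0, 1.08 and 9.84 in the silver eels of FG1835 and at 23.2, 41.7 and 169 in those of FG1907. Among the members tested mcm6 had the largest coefficient of variation over the eels, 150.2%, and 1 silver eel, FG1907_03, was far above the next. Its log2 difference between the stages, 1.56 (standard error 0.90), was the largest of the members tested and came to 0.44 without FG1907_03. The subunit mcm3 (g27814) was at 25.2, 19.4, 11.8, 21.5 and 24.1 in yellow eels and at 26.0, 21.7, 17.2, 24.3, 56.3 and 18.8 in silver eels. Its one high value was from FG1907_02, the library that stood apart. Its log2 difference was 0.42 (standard error 0.39, unadjusted p = 0.300 in edgeR) and 0.066 without FG1907_02. The 5 other transcripts tested, of mcm2, mcm5, mcm6z and mcm7, had stage differences of -0.37 to 0.27.

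PCNA, the sliding clamp, is present as 3 transcripts. The most abundant, pcna (g21536), was even in yellow eels, at 70.8, 84.3, 68.2, 70.1 and 80.7. In silver eels it was at 61.0, 59.6 and 45.9 in FG1835 and at 63.7, 37.6 and 122 in FG1907. So 5 of 6 silver eels lay below every yellow eel and the sixth, FG1907_03, above all of them. The log2 difference was -0.22 (standard error 0.31, unadjusted p = 0.495 in edgeR) and -0.49 without FG1907_03, where the unadjusted p was 0.081. The second transcript, pcna (g36974), was at 34.97, 27.0, 13.6, 55.4 and 45.4 in yellow eels and at 24.0, 14.1, 20.5, 51.0, 22.9 and 76.4 in silver eels, again with the highest value in FG1907_03. The third, pcna (g7408), was at 7.32, 12.6, 21.8, 1.13 and 8.35 in yellow eels and at 14.0, 1.08, 7.38, 1.16, 0 and 2.35 in silver eels and was too low for the test.

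Topoisomerase 2-alpha, the form of the enzyme that dividing cells make, had 4 transcripts, of which top2a (g20484) was tested. Yellow eels had 22.8, 18.5 and 18.2 in FG1835 and 53.2 and 13.9 in FG1907. Silver eels had 27.0, 7.59 and 13.1 in FG1835 and 22.0, 31.3 and 155 in FG1907. Apart from FG1907_03 the silver eels lay within or below the range of the yellow eels. The log2 difference of 0.76 (standard error 0.70, unadjusted p = 0.300 in edgeR) came to -0.31 without that library. The weaker transcripts g32310 and g24950 of the same name had their highest values in FG1907_03 as well, 17.6 and 12.9.

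The mitotic kinases differed in their spread. Polo-like kinase 1, which acts at the centrosome and kinetochore, was at 43.9, 59.0, 43.6, 72.4 and 64.0 in yellow eels and at 49.0, 32.5, 77.1, 81.1, 64.7 and 65.8 in silver eels (plk1, g6602). Its coefficient of variation of 25.9% was the lowest of the genes of dividing cells that were tested, whose median was 55.2%, and the stages overlapped throughout (log2 difference 0.12, standard error 0.30). The kinase cdk1 (g4039) was at 8.95, 7.59 and 9.09 in the yellow eels of FG1835, at 28.3 and 51.0 in those of FG1907, at 19.99, 3.25 and 5.74 in the silver eels of FG1835 and at 24.3, 21.9 and 28.2 in those of FG1907. The stages of cdk1 overlapped (log2 difference -0.29, standard error 0.64, and 0.37 without FG1907_06), while the 5 eels of FG1907 all lay above the 6 of FG1835.

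Cyclins of mitosis, the partners of CDK1, were close to the limit of what this depth can show. All 6 transcripts of ccnb1, ccnb2 and ccnb3 had reads, 193 over all libraries together, and none passed the filter. The most abundant, ccnb1 (g2311), was at 8.13, 7.59, 6.36, 9.05 and 12.98 in yellow eels and at 10.995, 2.17, 3.28, 10.4, 26.1 and 1.17 in silver eels. The 26.1 was from FG1907_02 and the 1.17 from FG1907_03, the library with the highest values of mcm4a, mcm6, pcna and top2a.

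At the kinetochore, the NDC80 complex of ndc80, nuf2, spc24 and spc25 grips the microtubules of the spindle. Its most abundant transcript, nuf2 (g20), was at 10.6, 5.06, 46.4, 52.0 and 5.56 in yellow eels and at 9.996, 54.2, 12.3, 26.6, 22.9 and 37.6 in silver eels. High and low values thus occurred in both stages and in both sets, and the log2 difference between the stages was 0.19 (standard error 0.66). In contrast spc24 (g11404) was at 3.25, 1.69 and 0 in the yellow eels of FG1835 and 22.6 and 40.8 in those of FG1907, and at 0.9996, 2.17 and 4.10 in the silver eels of FG1835 and 17.4, 13.6 and 30.5 in those of FG1907. The sets of spc24 did not overlap and its stages did (stage log2 difference -0.26, standard error 1.01, and 0.77 without FG1907_06).

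The checkpoint kinases bub1 and bub1b, which hold back division until every chromosome is attached, had 5 transcripts with 84 reads in all, and 0 passed the filter. The most abundant of them, bub1b (g3422), was at 2.44, 1.69, 1.82, 2.26 and 2.78 in yellow eels and at 2.999, 2.17, 3.28, 0, 3.13 and 0 in silver eels. Their partner bub3 was far better covered. In yellow eels bub3 (g7982) was at 149.7, 137, 125, 192 and 132 and in silver eels at 181, 124, 136, 200.4, 127 and 259.6. The stages overlapped (log2 difference 0.21, standard error 0.25), with the highest value again in FG1907_03. The kinetochore protein zw10 (g11121), which in resting cells takes part in traffic between endoplasmic reticulum and Golgi, had the lowest coefficient of variation of the members tested, 13.6%, with 270.02, 219, 329, 355 and 346 in yellow eels and 293, 305, 307, 300.1, 324 and 371 in silver eels. The aurora kinase a-interacting protein (g41527) was at 16.3, 8.43, 8.18, 9.05 and 5.56 in yellow eels and at 10.995, 13.005, 9.02, 10.4, 12.5 and 12.9 in silver eels, all within the range of the yellow eels (log2 difference 0.25, standard error 0.36).

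Ki-67 coats mitotic chromosomes and is the protein that pathologists stain to count dividing cells. In yellow eels ki67 (g12263) was at 68.3, 52.3 and 61.8 in FG1835 and at 12.44 and 21.3 in FG1907. In silver eels it was at 105, 36.8 and 50.04 in FG1835 and at 37.1, 21.9 and 7.05 in FG1907. Its lowest value was that of FG1907_03. Between the stages its mean was 43.2 ± 24.9 in yellow eels (mean ± SD, n = 5) and 43.0 ± 33.8 in silver eels (n = 6), a log2 difference of -0.02 (standard error 0.59).

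**Figure D2:**
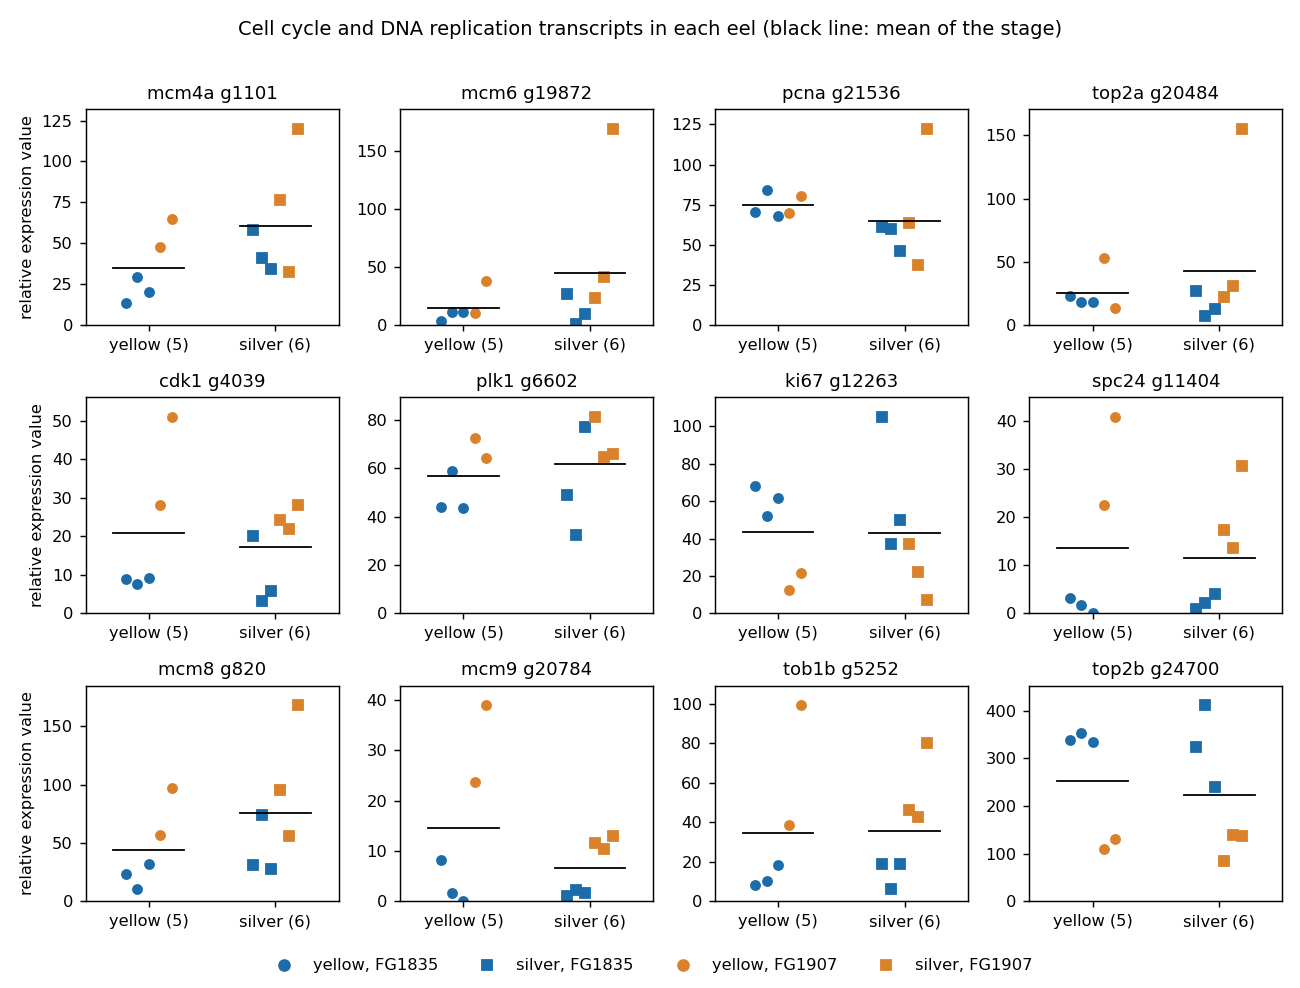
Relative expression values of 12 members in each eel (circles yellow, squares silver; blue FG1835, orange FG1907; black lines are stage means; each axis starts at 0). In every panel the stages overlap. The sets do not overlap in spc24, cdk1, mcm9, tob1b and top2b (g24700), against 21.1% of all transcripts tested. Of these, spc24, cdk1 and mcm9 passed the filter through FG1907 and had to differ. The panels were also chosen to hold the 4 members with the smallest p between sets. FG1907_03 is the single high square at 169 for mcm6 and 155 for top2a.

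The members that resting cells use too had 16 transcripts tested. Among the licensing factors named mcm8 and mcm9, which work as a pair in repair of DNA breaks, mcm8 (g820) was at 23.6, 10.96, 31.8, 56.5 and 97.4 in yellow eels and at 31.0, 73.7, 27.9, 95.0, 56.3 and 168 in silver eels. Its log2 difference between the stages was 0.76 (standard error 0.58, unadjusted p = 0.211 in edgeR) and 0.36 without FG1907_03, which held the 168. For mcm9 (g20784) the yellow eels had 8.13, 1.69 and 0 in FG1835 and 23.7 and 38.9 in FG1907, and the silver eels 0.9996, 2.17 and 1.64 in FG1835 and 11.6, 10.4 and 12.9 in FG1907. In FG1907 both yellow eels thus lay above the highest silver eel, whereas in FG1835 the stages overlapped. The log2 difference of mcm9 was -1.13 (standard error 0.94, unadjusted p = 0.248), -0.32 without FG1907_06 and, with the set in the model, -1.28 (unadjusted p = 0.0407, adjusted p over 0.05 in edgeR).

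Topoisomerase 2-binding protein, which brings replication and checkpoint kinases to DNA, was present as tob1a and tob1b. Of these, tob1a (g5253) was at 43.1, 45.5, 57.3, 40.7 and 80.7 in yellow eels and at 42.0, 54.2, 37.7, 54.5, 62.6 and 66.95 in silver eels, with overlap of stages and sets. In tob1b (g5252) the values were 8.13, 10.1 and 18.2 in the yellow eels of FG1835, 38.5 and 99.2 in those of FG1907, 18.99, 6.50 and 18.9 in the silver eels of FG1835 and 46.3, 42.8 and 79.9 in those of FG1907. The sets of tob1b did not overlap, and the stages did (stage log2 difference 0.02, standard error 0.71, with 0.94 without FG1907_06 and -0.38 without FG1907_03).

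The library sets were then compared, with the stage in the model, because both sets hold both stages. Log2 differences are FG1907 minus FG1835. At an adjusted p under 0.05 in edgeR, 9 of the 33 members were higher in FG1907 (19.5% of all transcripts tested), 5 were lower (19% of all) and 19 were not called. Among the 14 calls are 5 members, spc24, mcm9, cdk1 and top2b g31243 and g33540, that reached the count minimum of the filter in at most 1 library of the set where they were low. Such a transcript passes the filter through the set where it is high and had to differ, so its values are given as a description without a test. Of the 28 members at the count minimum in 2 or more libraries of each set, a filter chosen after the data were seen, 6 were higher (18.1% of all such transcripts) and 3 were lower (16.9% of all). Without FG1907_03 the count of higher members fell from 9 to 5, since mcm4a and mcm6 lost the call and spc24 and mcm9 no longer passed the filter. The count of lower members was 5. The share of all transcripts called in that fit is not given here, so the fall is no result about the members. The sets did not overlap in 9 members, against 21.1% of all transcripts tested, and these 9 include the 5 described without a test. The median log2 difference of the 28 members was 0.31, against 0.034 over all such transcripts. Counts and medians under this second filter come from a separate fit of those transcripts alone. Log2 differences, standard errors and adjusted p of single transcripts, here and in the other lists, come from the edgeR fit on all transcripts tested.

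Of the 15 genes of dividing cells at the count minimum in both sets, 4 were higher in FG1907 (18.1% of all such transcripts) and 1 was lower (16.9% of all). With so few members these counts are no result, and the values of the single transcripts are given as a description. The higher ones were mcm6 (g19872; log2 difference 2.10, standard error 0.71), mcm5 (1.34, standard error 0.37), pcna (g36974; 1.18, standard error 0.35) and mcm4a (1.05, standard error 0.35). Without FG1907_03 mcm6 came to 1.39 and mcm4a to 0.87, and neither passed. The call of mcm4a was also lost with limma, with upper-quartile scaling and without each of 6 other libraries, and that of mcm6 without each of 4 others. In mcm5 (g7817), another ring subunit, the sets did not overlap, with 4.21 to 21.0 in FG1835 and 22.9 to 43.0 in FG1907. Without a test, spc24 had 0 to 5 reads in each library of FG1835 and 13 to 44 in each of FG1907, and cdk1 had 3 to 20 and 21 to 55. The member that was lower was ki67, with 62.4 ± 23.5 in FG1835 (mean ± SD, n = 6 eels) and 19.96 ± 11.4 in FG1907 (n = 5 eels; log2 difference -1.67, standard error 0.41, adjusted p = 0.00806 in edgeR). Its sets overlapped narrowly, since FG1907_01 had 37.1 and FG1835_05 had 36.8. The abundant pcna (g21536) and plk1 were not called, with 0.24 (standard error 0.29) and 0.43 (standard error 0.25). Nor was top2a, with 1.51 (standard error 0.60, adjusted p = 0.0623 in edgeR) and 0.75 without FG1907_03.

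**Figure D3:**
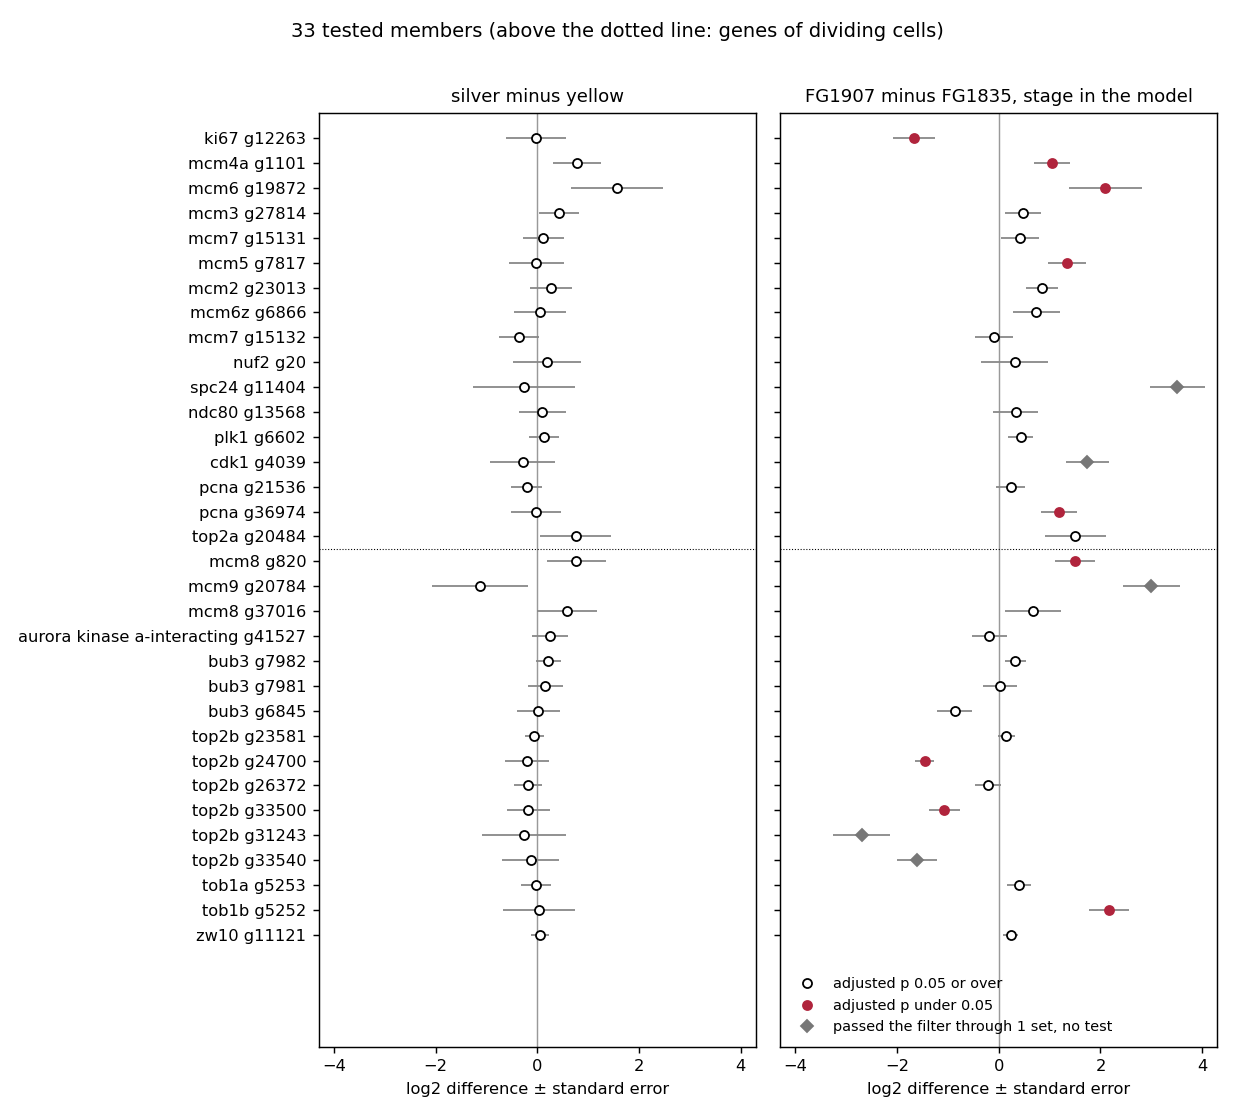
Log2 differences with standard errors of the 33 members tested, silver minus yellow on the left and FG1907 minus FG1835 with the stage in the model on the right (red: adjusted p under 0.05 in edgeR; grey diamonds: the 5 members that passed the filter through 1 set, shown without a test). All points on the left are open, with 1.56 for mcm6 (g19872) the farthest from 0. On the right 6 of 28 are red above 0 and 3 are red below 0. Of all transcripts at the count minimum in 2 or more libraries of each set, 18.1% were higher and 16.9% lower. The red points are thus no result about the members as a group.

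Among the members that resting cells use too, tob1b (log2 difference 2.17, standard error 0.40) and mcm8 (g820; 1.502, standard error 0.39) were higher in FG1907, with adjusted p of 0.0016 and 0.00986 in edgeR. Without a test, mcm9 had 0 to 10 reads in each library of FG1835 and 10 to 42 in each of FG1907. Both members that were lower carry the name top2b, the topoisomerase that opens DNA of resting cells during transcription. Of the 6 transcripts of top2b, the most abundant, g23581, was at 475, 619.6, 448, 617 and 615 in yellow eels and at 502, 584, 479, 593, 377 and 678 in silver eels and was not called between the sets (0.15, standard error 0.17).

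The second transcript of this name, top2b (g24700), was at 338, 354 and 334 in the yellow eels of FG1835 and at 111 and 132 in those of FG1907. In silver eels it was at 324, 412 and 239.6 in FG1835 and at 84.6, 139 and 137 in FG1907. The lowest eel of FG1835 thus lay above the highest of FG1907 (log2 difference -1.46, standard error 0.19, adjusted p = 0.000323 in edgeR), which gave it the smallest p of the members in this comparison. The sets did not overlap in top2b g33500 either (-1.07, standard error 0.31, adjusted p = 0.0162 in edgeR), a call that was lost without FG1907_06. Without a test, g31243 had 16 to 30 reads in each library of FG1835 and 0 to 6 in each of FG1907, and g33540 had 16 to 21 and 1 to 8. The transcript g26372 was not called (-0.21, standard error 0.25). Whether some of them are pieces of 1 gene was not tested.

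**Figure D4:**
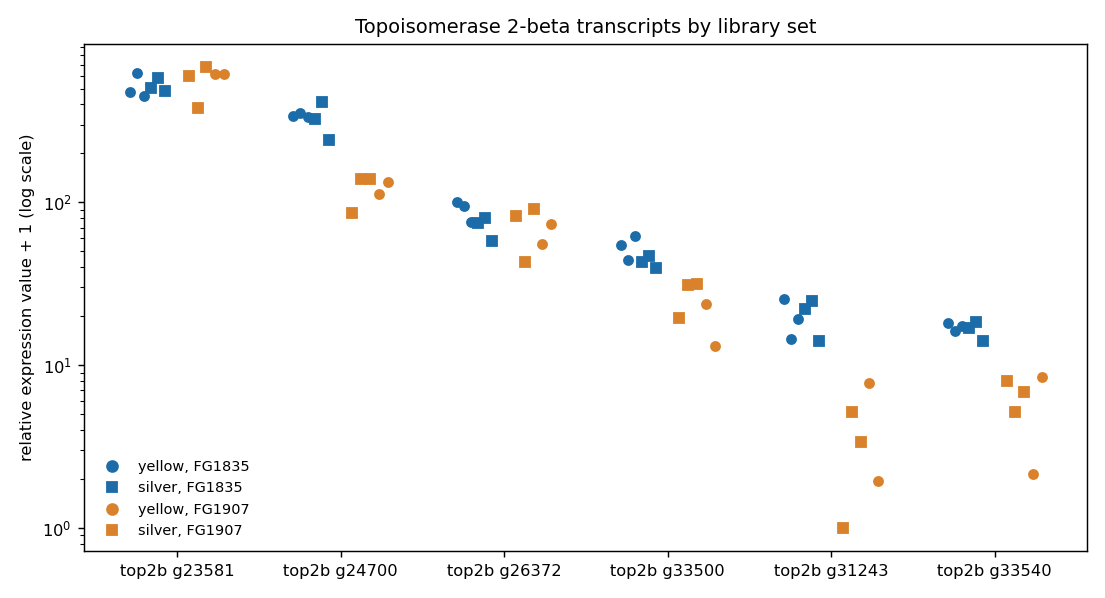
Relative expression values plus 1 of the 6 transcripts named top2b in each eel, on a log axis (circles yellow, squares silver; blue FG1835, orange FG1907). For g24700 the eels of FG1835 sit at 239.6 to 412 and those of FG1907 at 84.6 to 139 before the 1 is added, and for g23581 the sets overlap.

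How names divide over transcripts was checked by adding the counts of all transcripts of a name, an analysis chosen after the data were seen. Names that differ only in a last letter or in the form of the gene were joined as well (mcm3m and mcm3z with mcm3, mcm6m, mcm6z and mc6za with mcm6, mcm7a with mcm7, tob1a with tob1b). The 69 members then fell to 27 names, and for 23 of these the RefSeq annotation of another eel assembly (fAngAng1.pri) lists 1 gene of that symbol, although with the names joined mcm3 was spread over 11 transcripts here, mcm7 over 6, mcm6 over 5 and top2b over 6. Of 22 names tested, 0 differed between the stages at an adjusted p under 0.05 and 0 at an unadjusted p under 0.05 (2.32% of all names). Between the sets 7 were higher in FG1907 (19.1% of all names) and 2, ki67 and top2b, were lower (17.8% of all names). Among the 7 are cdk1, spc24 and mcm9, with 1 transcript each. They passed the filter through FG1907 and had to differ, so their calls are no test. The summed top2b was at 1013 ± 121 in FG1835 and 795 ± 127 in FG1907 (log2 difference -0.45, standard error 0.14, adjusted p = 0.0236 in edgeR), much less apart than g24700 alone. The summed mcm6, with 34.6 ± 22.7 and 91.3 ± 65.1, was no longer called (1.15, standard error 0.48, adjusted p = 0.0786 in edgeR).

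Whether the stages differed in another way in each set was tested with an interaction term. Of the 33 members 1 had an unadjusted p under 0.05 (4.94% of all transcripts tested) and 0 an adjusted p under 0.05 in edgeR. This was mcm2 (g23013; unadjusted p = 0.0284), another subunit of the ring, with 10.6, 8.43 and 10 in the yellow and 25.0, 18.4 and 15.6 in the silver eels of FG1835, and 30.5 and 29.7 in the yellow and 19.7, 25.0 and 24.7 in the silver eels of FG1907. In mcm2 the silver eels thus lay above the yellow eels in FG1835 and below the 2 yellow eels in FG1907, on 10 to 32 reads per library. With 4.94% of all transcripts tested under the same unadjusted p, 1 of 33 members is no result.

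Some eels held the highest value of several members. FG1907_03 held the highest value of 12 of the 33 members tested (17.7% of all transcripts tested), 6 of them genes of dividing cells. It held the lowest value of 2 (14.1% of all transcripts tested), among them ki67. The yellow eel FG1907_06 held the highest value of 7 (9.24% of all transcripts tested), such as cdk1, spc24, mcm9 and tob1b. Of these, cdk1, spc24 and mcm9 passed the filter through FG1907. The coefficient of variation of the 17 genes of dividing cells tested was 25.9 to 150.2% (median 55.2%), and the median of all transcripts in the same range of means was 52.7%. Counting alone gives 11.9 to 30.5% at the read counts of these genes.

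Cell type markers differed between the eels as well. Summed over the list, endothelial markers were at 45620 to 60669 in FG1835 and 31552 to 61210 in FG1907, with the highest sum in FG1907_03. That library had the lowest sums of leukocytes (1386, against 1877 to 4695 in the others), of smooth muscle and pericytes (41480, against 51444 to 111870), of fibroblasts (13840, against 15087 to 47934) and of erythrocytes (38.8, against 40.1 to 926). FG1835_05 came next to it in endothelium (60669), leukocytes (1877), fibroblasts (15087) and erythrocytes (40.1), but not in smooth muscle and pericytes (94526). Yet the genes of dividing cells had their lowest sum in FG1835_05 (404) and their highest in FG1907_03 (1062). All 7 leukocyte names, 7 of smooth muscle and pericytes and 5 of fibroblasts had reads in every library, and of 7 erythrocyte names hem0, b3at and sptb1 were at 0 somewhere. FG1907_02 had the lowest endothelial and the highest smooth muscle, fibroblast and leukocyte sums. The highest erythrocyte sum, 926, was from FG1907_06, and the next, 609, from FG1907_02, so the perfused retia differed in reads of erythrocyte names. In these whole-tissue samples fewer cells of a type and less RNA per cell cannot be told apart. The part of these cells in the values of FG1907_03, FG1907_02 and FG1907_06 was not tested.

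To set the members in the rest of the cycle, 234 other transcripts were taken by their description, of which 124 were tested. Between the stages 0 passed at an adjusted p under 0.05 and 2 of the 124 had an unadjusted p under 0.05, where 2.15% of all transcripts did, so their number is no result. The G1 cyclin ccnd1 (g3268), which growth signals switch on, was at 53.8 to 202 in yellow and 25.5 to 116 in silver eels (log2 difference -1.17, standard error 0.46, unadjusted p = 0.0232). The spindle motor kif11 (g9549) was at 13.01 to 87.2 in yellow and 4.63 to 38.8 in silver eels (-1.60, standard error 0.62, unadjusted p = 0.0233), and both overlapped between the stages.

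Between the sets these other transcripts were counted where they reached the count minimum in 2 or more libraries of each set, 116 of the 124. The shares to read the counts against are the same 18.1% higher and 16.9% lower of all such transcripts. Several transcripts share a name, such as rir1 and smc4, and no count by name is given. Higher in FG1907 were 10 of 39 transcripts of origins and forks. An example is mcm10 (g14235), which helps start the helicase, with a mean of 44.7 ± 19.1 in FG1835 and 203 ± 109 in FG1907. So were 9 of 18 transcripts of the list called mitotic exit, such as the anaphase-promoting complex subunit apc7 (g9586; log2 difference 1.14, standard error 0.18). That name is a label only, since the 9 include wee1 (g4916) and wee1a (g15809), kinases that act at entry into mitosis. Also higher were 8 of 19 of spindle, centromere and cytokinesis, such as the centromere protein cenpm (g11773; 2.50, standard error 0.24). None of these 3 groups had a transcript that was lower. Nucleotide supply had 2 of 10 higher and chromosome condensation 2 of 12, counts near the share of all transcripts, with 0 lower in each.

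In G1 control 1 of 13 was higher, the cyclin ccne1 (g7879; 1.60, standard error 0.29). Another 2 were lower, the weaker ccnd1 transcript (g20192; -1.15, standard error 0.40) and the weaker e2f4 transcript of those counted (g22506, with -0.97, standard error 0.30). These are counts at or below the shares of all transcripts. The more abundant ccnd1 (g3268; -0.51, standard error 0.46) and the main transcript of rb, the retinoblastoma protein and brake on entry into the synthesis phase (g17730; 0.13, standard error 0.19), were not called. Nor was the more abundant e2f4 (g16729, with -0.22, standard error 0.44). Of 5 inhibitors of cyclin-dependent kinases 0 were higher and 2 lower, a transcript of cdn1a and a transcript of cdn1b. For cdn1a (g5614) the values were 2018 ± 391 in FG1835 and 1398 ± 337 in FG1907 (-0.55, standard error 0.18). The inhibitor cdn1b, known as p27, has 2 transcripts, of which g11409 was at 1323 ± 175 in FG1835 and 678 ± 226 in FG1907 and was lower, while the more abundant g17528, at 4748 ± 854 and 3903 ± 1386, was not called (-0.35, standard error 0.19). Over all 116 transcripts 32 were higher in FG1907 and 4 lower, and the median log2 difference was 0.51, against 0.034 over all such transcripts. No test of a group as a whole was made.

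**Figure D5:**
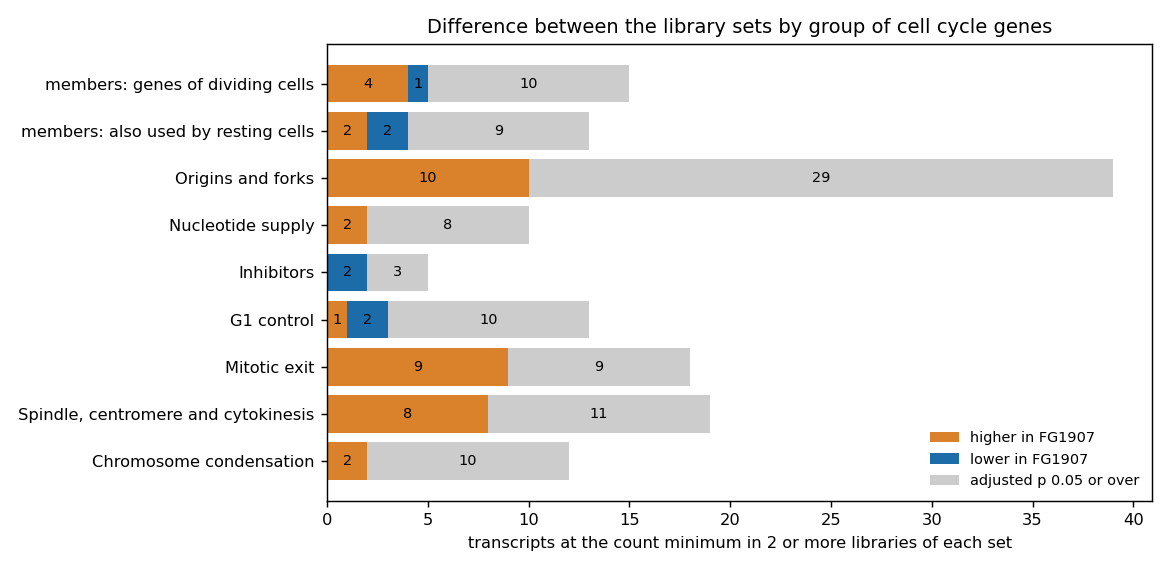
Number of transcripts in each group of cell cycle genes that were higher in FG1907, lower in FG1907 or not called at an adjusted p under 0.05 in the edgeR fit that includes the stage, among those at the count minimum in 2 or more libraries of each set. Mitotic exit (9 of 18) and spindle, centromere and cytokinesis (8 of 19) show only higher calls, and G1 control shows 2 lower and 1 higher. Of all such transcripts 18.1% were higher and 16.9% lower. Mitotic exit is the label of a list that also holds wee1 and wee1a.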

How the data were processed

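RNA of the rete mirabile of 11 eels was sequenced from stranded libraries. The protocol label speaks of gas gland, but the rete is given as the tissue in the labels and the paper, and this was followed. By the submitters' processing notes and the methods, the authors aligned reads with TopHat2 2.0.13 to a draft eel genome, used SAMtools 1.2 and counted reads per predicted gene with HTSeq 0.6.1p1 before running DESeq. The deposited counts are raw. The deposited base means are a signal that the authors made from counts and size factors, and they differ by at most 0.979 from the means computed here. The authors' fold changes and p-values in the same table were not used. The column FG1935_03 was read as FG1835_03, the only title without a column. Reads of transcripts that share sequence may have been divided among them or lost.

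Counts were divided by median-of-ratios size factors to give relative expression values. Tests were run with edgeR 4.0.16 (TMM scaling, filterByExpr by stage, quasi-likelihood test, Benjamini-Hochberg adjustment over all transcripts tested) in R 4.3.3, with all 11 libraries, on the stage alone, on the library set with the stage, and on their interaction. A standard error is the log2 difference over the square root of its F statistic. The tests were also tried on simulated data with known answers. There only transcripts with a mean above 50 were changed, and the simulated stage data held no difference between the sets. That trial says nothing about changes in the weaker members. Alternatives were DESeq2 1.42.0, limma 3.58.1, other scalings and filters, robust estimation, the set as a term, each set alone and each library left out. In the set comparison a second filter (at the minimum of about 10 reads in 2 or more libraries of each set) was added after seeing the data. Figures were drawn with Python 3.11.15 and matplotlib 3.10.9. Whether the eels of a group were caught or sampled together is not given in the sources used here, and p-values measure the spread between these eels.

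The members and the lists of other genes and markers were chosen with earlier results of these data known. Values in every library are given for the most abundant transcript of each role, for pcna, cdk1, ki67 and plk1, and for the members with the 6 smallest p between stages and the 4 smallest between sets. Other members, and the genes of the other lists that are named, were picked after their values were seen. Names of another protein that a description caught were left out of the other lists. Intervals and limits from counts cover counting error only. No sequence of a member is printed, and promoters were not analysed here.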

Additional observations from a re-analysis of the deposited data

Results flagged for a closer look

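Among 50 groups of values (23 transcripts and 2 sums in yellow and in silver eels), 7 held 1 eel far from the others by Dixon's ratio. Chance alone does this in about 1 of 20 groups of independent values from 1 normally distributed population. That rate is only a guide here, since each group mixes eels of both sets and the groups share eels and members. The values were also not on a log scale, and whether they are normally distributed was not tested. In silver eels FG1907_03 was far above the others in mcm6 (g19872) with a relative expression value of 169 (others 1.08 to 41.7), in top2a (g20484) with 155 (others 7.59 to 31.3), in pcna (g21536) with 122 (others 37.6 to 63.7) and in the summed value of all members with 3090.5 (others 1893 to 2267). FG1907_02 was far above the other silver eels in mcm3 (g27814) with 56.3 (others 17.2 to 26.0). In yellow eels FG1907_06 was far above the others in mcm6 (g19872) with 38.0 (others 4.07 to 11.8), and FG1907_04 in top2a (g20484) with 53.2 (others 13.9 to 22.8). All 7 are high values from FG1907, where pairs of libraries of 1 stage had a chi-square per degree of freedom of 39.98 to 112, against 20.9 to 33.6 in FG1835. The cause was not tested.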

How the results depend on the processing

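Between the stages 0 members passed at an adjusted p under 0.05 or an unadjusted p under 0.01 under any alternative run, and leaving out each library gave 0 to 0 for both counts. At an unadjusted p under 0.05 the count was 3 of 33 without FG1907_06 (mcm4a, mcm6 and mcm8), against 607 of all 24525 transcripts tested. With the set as a term it was 2 of 33 (mcm4a and mcm9), against 973 of 23981. Within FG1835 it was 2 of 31 (mcm4a and mcm2), against 1800 of 24657, and within FG1907 1 of 34 (mcm9), against 649 of 23319. Without FG1835_05 it was 1 of 33 (mcm6), against 511 of 23579, and in the other settings run it was 0. Counts of 1 to 3 members are too few to read as a result. Between the sets the 9 higher and 5 lower members came to 1 and 1 with a limit of 50 on the mean relative expression value, which left 9 members to test. With only transcripts at the count minimum in 2 or more libraries of each set (chosen after seeing the data) they came to 6 and 3 of 28. The shares of all such transcripts were 18.1% and 16.9%. Leaving out each library gave 5 to 10 higher and 4 to 5 lower, with 5 higher without FG1907_03. These counts, like the 9 and 5, include members that passed the filter through 1 set. Shares of all transcripts are not given for the limit of 50, the left-out libraries or upper-quartile scaling. Whether the members changed there more than all transcripts cannot be read from these counts. With counts summed over names (chosen after seeing the data), 7 were higher (19.1% of all names) and 2 lower (17.8% of all names). Of the 7, cdk1, spc24 and mcm9 are no test. The calls of mcm4a were lost in 9 of 19 alternatives, those of mcm6 in 5 of 19 and that of top2b (g33500) in 1 of 19, without FG1907_06. Those of ki67, pcna (g36974), mcm5, mcm8 (g820), tob1b and top2b (g24700) were kept wherever the transcript was tested. For spc24, mcm9, cdk1 and top2b g31243 and g33540 a kept call says nothing, since they passed the filter through 1 set. Top2a was called in DESeq2, without the stage term and without FG1907_01, FG1907_02 or FG1907_06. Upper-quartile scaling moved the median set difference of all transcripts from 0.025 to -0.11 and called 8 higher and 6 lower. The interaction gave 0 members at an adjusted p under 0.05 in each setting run. The summed genes of dividing cells in FG1907_03 were 1.95 times the median of the other libraries in relative expression values and 1.97 times it in TMM-scaled CPM. No paired analysis was possible because the labels number no replicates, the numbers used here follow accession order, and each library is a different eel. The planned sum without kinases 10 to 19 had nothing to leave out. At this depth 36 members stayed below the filter, and the data say little about them.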
